A study of Mus musculus with 6 samples.

Results

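The SR splicing factors and the Tra2 proteins were examined in the cerebellum of Mn-deficient mice through 10 genes: Srsf1, Srsf2, Srsf3, Srsf4, Srsf5, Srsf6, Srsf7, Srsf11, Tra2a and Tra2b. They were found by symbol, after the gene identifiers of the count table had been matched to the GENCODE M21 annotation. The list was drawn up with earlier results of these data known, so it is not independent of them. All 10 were detected in every library and passed the filter on low counts, out of 16123 genes tested and 53715 mouse genes listed. The study fed male C57BL/6 mice, bought at 4 weeks of age and called adult in the labels, a purified diet for 2 weeks. The stated Mn content of the low-Mn diet was 0 ppm by the labels and below 0.01 ppm by the methods, and that of the normal-Mn diet was 35 ppm. The methods also report concentrations measured by mass spectrometry, whose upper bound for the low-Mn diet was above 0.01 ppm. No other treatment and no altered allele is named for either group, and each had 3 mice with 1 library of polyadenylated RNA per cerebellum. The methods call the samples of a group biological replicates, whereas a figure legend calls them technical, and if they are technical the p-values cover no variation between mice. The columns of the low-Mn libraries carry a replicate number but no diet. They were assigned to the low-Mn mice because the normal-Mn libraries of the same numbers have columns of their own.

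SR proteins carry RNA recognition motifs and a domain rich in arginine and serine (the RS domain). Bound to short enhancer sequences in exons, they help the spliceosome to recognize the neighbouring splice sites, and most also serve in constitutive splicing, in mRNA export or in translation. Their activity is set by phosphorylation of the RS domain, and many limit their own amount by splicing a "poison" exon into their own transcript, which brings in an early stop codon and sends the transcript to nonsense-mediated decay. In the brain they act on many exons of ion channels, synaptic proteins and the microtubule protein tau.

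Annotated transcripts of this kind were present for all 10 genes. In 6 of them (Srsf3, Srsf4, Srsf7, Srsf11, Tra2a and Tra2b) the early stop lies in an exon that overlaps no exon coding in the gene's protein-coding transcripts. The sequences are shown because the deposited gene counts pool these decay transcripts with the coding ones, so a change in a count does not say which of the products changed. The coordinates are those of GRCm38 (mm10), and each sequence runs in the direction of the transcript from the start of the exon through the stop codon, which is in capitals. The part shown spans chr6:49252965-49253108 on the minus strand in Tra2a and chr16:22259181-22259261 on the minus strand in Tra2b. It spans chr17:29039454-29039487 on the plus strand in Srsf3 and chr4:131884276-131884390 on the plus strand in Srsf4. In Srsf7 it spans chr17:80205054-80205081 on the minus strand, and in Srsf11 chr3:158024209-158024231 on the minus strand.
Tra2a: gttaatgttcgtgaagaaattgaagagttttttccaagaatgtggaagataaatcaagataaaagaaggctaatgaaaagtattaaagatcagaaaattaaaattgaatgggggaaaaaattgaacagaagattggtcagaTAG
Tra2b: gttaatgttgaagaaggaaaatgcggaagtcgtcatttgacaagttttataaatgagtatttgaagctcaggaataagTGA
Srsf3: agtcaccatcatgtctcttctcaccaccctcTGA
Srsf4: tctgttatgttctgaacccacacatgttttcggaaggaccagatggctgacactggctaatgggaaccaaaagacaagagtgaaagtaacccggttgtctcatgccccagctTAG
Srsf7: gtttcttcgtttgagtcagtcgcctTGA
Srsf11: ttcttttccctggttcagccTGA

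The whole exons of these sequences measure 306 bases in Tra2a, 276 in Tra2b, 456 in Srsf3, 207 in Srsf4, 460 in Srsf7 and 109 in Srsf11. For each gene 1 exon is shown, that of the first such transcript by name. Also annotated are a separate exon of 117 bases in Srsf11 and forms of 397 bases in Tra2b and 188 bases in Srsf4. The bases through the stop codon number 144 in Tra2a, 81 in Tra2b, 115 in Srsf4, 34 in Srsf3, 28 in Srsf7 and 23 in Srsf11. Tra2 proteins bind purine-rich RNA with the core AGAA. Searched on the transcript strand, with overlapping matches counted, this motif occurred 5 times in the Tra2a sequence, once in that of Tra2b and in none of the other 4. At least 1 match was present in 63.2% of 62868 wholly coding mouse exons cut to the length of the Tra2a sequence, and at least as many matches as in Tra2a were present in 2.57%. For the length of the Tra2b sequence the share with a match was 47.3%. For the lengths of the Srsf3, Srsf4, Srsf7 and Srsf11 sequences it was 24.4%, 57.2%, 20.2% and 16.6%. A match describes the letters and says nothing about binding in these cerebella.

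Library totals ran from 14548336 to 17124327 counts in low-Mn cerebella and from 18446701 to 21277469 counts in normal-Mn cerebella, so that the lowest member count in any library was 1072 (Srsf4) and the highest 6343 (Srsf1). Of all tested genes, 96 (0.595%) passed the test between diets, edgeR's quasi-likelihood test with an adjusted p under 0.05, and 67 of them (0.416% of those tested) were higher on the low-Mn diet. Markers of cerebellar neurons were present in every library, and none of the listed markers of 9 cell types was at 0. The summed level of 10 granule neuron markers ranged from 5202 to 5468 CPM (counts relative to the scaled library total) in low-Mn cerebella and from 5120 to 5537 CPM in normal-Mn cerebella. The summed levels of 10 oligodendrocyte markers were 6807 to 7093 CPM in low-Mn cerebella and 7277 to 8083 CPM in normal-Mn cerebella, and those of 10 meningeal markers were 327 to 388 CPM in low-Mn cerebella and 404 to 458 CPM in normal-Mn cerebella. Marker sums of astrocytes (4024 to 4142 CPM in low-Mn cerebella, against 4265 to 4408 CPM) and microglia (152 to 161 CPM in low-Mn cerebella, against 169 to 173 CPM) also did not overlap between diets, and those of the choroid plexus were 2262 to 2797 CPM in low-Mn cerebella and 2616 to 3163 CPM in normal-Mn cerebella. By gene, 2 of the 10 oligodendrocyte markers, 2 of the 10 meningeal markers and 3 of the 10 choroid plexus markers were lower with an edgeR adjusted p under 0.05, and none was higher. Of the 16123 tested genes, 29 were lower at that threshold. Of the 9 marker sums, 4 were lower in every low-Mn library than in every normal-Mn library, and their part in the values below was not tested. Among single genes this held for 1342 of the 16123 tested. In whole tissue, fewer cells of a type and less RNA per cell cannot be told apart.

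1 of the 10 genes, Tra2a, passed the test, higher in the low-Mn group, against 0.416% of all tested genes. The log2 fold changes of all 10 were above 0, against 49.2% of tested genes, although that of Srsf3 lay close to 0 and was below it under 6 of 18 other settings. Their median was 0.11 on the log2 scale, against -0.0025 over all tested genes. Before adjustment 5 members (Tra2a, Srsf5, Srsf1, Srsf11 and Srsf6) had a p under 0.05, against 6.54% of tested genes in that direction. In the same 5 the diets did not overlap, with every low-Mn library above every normal-Mn library, against 8.79% of tested genes. Among the 3612 tested genes counted at least as deeply as the least abundant member, 1.22% passed the test in either direction. Of the same 3612 genes, 9.99% were higher with an unadjusted edgeR p under 0.05. A fold change above 0 was held by 50.1% of them, and 11.5% had every low-Mn library above every normal-Mn library. The plots of the CPM by library and of the fold changes show these values.

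**Figure D1:**
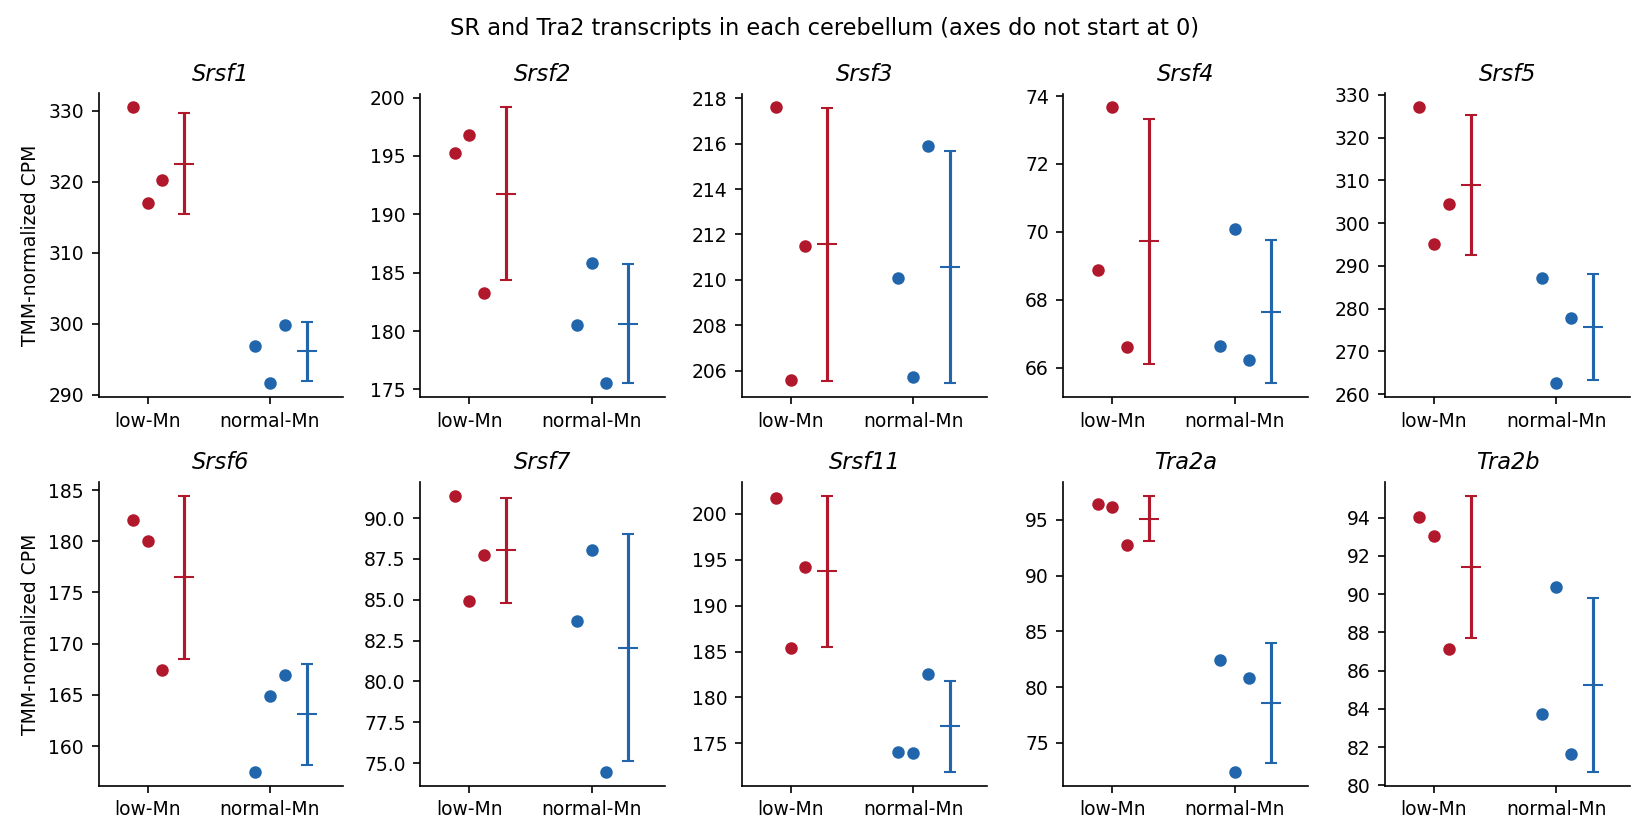
TMM-normalized CPM of each of the 10 genes in the 3 low-Mn (red, left) and 3 normal-Mn (blue, right) cerebella, with the mean and SD beside the points; axes do not start at 0. The diets stand apart for Tra2a, Srsf5, Srsf1, Srsf11 and, narrowly, Srsf6, and overlap for the other 5.

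The Tra2 proteins, mammalian relatives of the Transformer-2 sex determination factor of the fly, carry an RS domain at each end and activate exons through purine-rich enhancers. Tra2a (ENSMUSG00000029817.11, minus strand of chromosome 6, 49243924 to 49264033) had 96.4, 96.1 and 92.8 CPM in low-Mn cerebella, against 82.4, 72.4 and 80.9 CPM in normal-Mn cerebella. The 3 low-Mn values lay within 4 CPM of each other, and the lowest of all 6 was normal-Mn replicate 2. Tra2a averaged 95.1 ± 2.04 CPM in low-Mn and 78.6 ± 5.38 CPM in normal-Mn cerebella (SD, n = 3 each), which is 1.21-fold higher in the low-Mn group (95% interval 1.12 to 1.31). On the log2 scale the difference was 0.28 with a standard error of 0.056, and the edgeR adjusted p was 0.0283. The call was lost when low-Mn replicate 1, low-Mn replicate 2 or normal-Mn replicate 2 was left out (log2 fold changes of 0.27, 0.27 and 0.22, with edgeR adjusted p of 0.0999, 0.110 and 0.121). The gene shares no 50-base sequence with another annotated gene.

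Tra2b (ENSMUSG00000022858.16, minus strand of chromosome 16, 22244549 to 22266005), the partner best known for promoting exons of tau and of the human SMN genes, had 94.0, 93.0 and 87.1 CPM in low-Mn cerebella, against 83.7, 90.4 and 81.7 CPM in normal-Mn cerebella. Here the diets overlapped, since normal-Mn replicate 2 exceeded low-Mn replicate 3. The log2 fold change was 0.10 (95% interval -0.01 to 0.21, edgeR adjusted p = 0.482). Within a library the ratio of Tra2a to Tra2b CPM was 1.03, 1.03 and 1.06 in low-Mn cerebella, against 0.984, 0.801 and 0.990 in normal-Mn cerebella. Every low-Mn ratio was above every normal-Mn ratio, and normal-Mn replicate 2 stood far below the other 5. That library held the lowest Tra2a level and the highest Tra2b level among the normal-Mn cerebella.

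Of the SR proteins, Srsf5, Srsf1, Srsf11 and Srsf6 had separated diets without passing the test. Srsf5 (ENSMUSG00000021134.17, plus strand of chromosome 12, 80945504 to 80950507) encodes an SR protein first described in the rat as an insulin-induced gene of regenerating liver. It had 327, 295 and 304 CPM in low-Mn cerebella, against 287, 263 and 278 CPM in normal-Mn cerebella. Low-Mn replicate 1 stood above the rest, and the gap between the diets, 295 against 287 CPM, was smaller than the spread within either. The means were 309 ± 16.4 CPM in low-Mn and 276 ± 12.4 CPM in normal-Mn cerebella (SD, n = 3 each), and the log2 fold change was 0.16 (95% interval 0.06 to 0.26, edgeR adjusted p = 0.139). The adjusted p fell under the threshold with default DESeq2 settings (0.0459, where 1.92% of 7144 genes passed), without the filter on low counts (0.0495), and with the replicate number as a block and a trend on length and GC content removed (0.0312). The paper, which used DESeq2, lists both Srsf5 and Tra2a as spliceosome genes significantly higher in the Mn-deficient cerebellum. Of the exonic 50-base sequences of Srsf5, 10.1% also occur in another gene, with Gm12966 sharing the most, so that part of its count may rest on how the reads were shared out.

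Srsf1 (ENSMUSG00000018379.17, plus strand of chromosome 11, 88047373 to 88053755) binds purine-rich enhancers, helps U1 snRNP to join the splice site at the start of the intron and shuttles to the cytoplasm. It had 330.5, 317 and 320.3 CPM in low-Mn cerebella, against 297, 292 and 299.9 CPM in normal-Mn cerebella. The values within each diet lay close together, and the lowest low-Mn value was 317 CPM, against a highest normal-Mn value of 299.9 CPM. The log2 fold change was 0.12 (95% interval 0.04 to 0.21, edgeR adjusted p = 0.212).

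Srsf11 (ENSMUSG00000055436.18, minus strand of chromosome 3, 158010473 to 158036639) is an SR-related protein that takes part in the inclusion of neuronal microexons. It had 202, 185 and 194 CPM in low-Mn cerebella, against 174, 174 and 183 CPM in normal-Mn cerebella. The diets were parted by the small step between low-Mn replicate 2 and normal-Mn replicate 3. Its log2 fold change was 0.13 (95% interval 0.04 to 0.23, edgeR adjusted p = 0.234). Srsf6 (ENSMUSG00000016921.14, plus strand of chromosome 2, 162931528 to 162937121), a regulator of tau splicing, had 182, 179.98 and 167.4 CPM in low-Mn cerebella, against 157, 165 and 166.9 CPM in normal-Mn cerebella. Low-Mn replicate 3 and normal-Mn replicate 3 were nearly equal, so that the separation rested on less than 1 CPM. The log2 fold change of Srsf6 was 0.11 (95% interval 0.01 to 0.21, edgeR adjusted p = 0.327).

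Srsf7 and Srsf2 had diets that overlapped in 1 library or more. Srsf7 (ENSMUSG00000024097.11, minus strand of chromosome 17, 80200080 to 80207307) carries a zinc knuckle beside its RNA recognition motif and is an adaptor for mRNA export. It had 91.4, 84.9 and 87.8 CPM in low-Mn cerebella, against 83.7, 88.0 and 74.5 CPM in normal-Mn cerebella. Normal-Mn replicate 3 was the lowest of the 6, and normal-Mn replicate 2 stood above low-Mn replicates 2 and 3. The log2 fold change was 0.10 (95% interval -0.03 to 0.23, edgeR adjusted p = 0.533). Srsf2 (ENSMUSG00000034120.18, minus strand of chromosome 11, 116849901 to 116853094), which stays in the nucleus and marks nuclear speckles, had 195, 197 and 183 CPM in low-Mn cerebella, against 181, 186 and 176 CPM in normal-Mn cerebella. Only low-Mn replicate 3 fell among the normal-Mn values. Its log2 fold change was 0.09 (95% interval -0.01 to 0.18, edgeR adjusted p = 0.469), and 25.3% of its exonic bases overlap Mettl23 and Mfsd11 on the opposite strand.

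Srsf3 and Srsf4 lay nearest to 0 on the log2 scale. Srsf3 (ENSMUSG00000071172.13, plus strand of chromosome 17, 29032628 to 29043373) is the smallest classical SR protein and an adaptor for mRNA export. It had 218, 206 and 211 CPM in low-Mn cerebella, against 210.1, 206 and 216 CPM in normal-Mn cerebella. The values of the diets were interleaved, and the log2 fold change was 0.01 (95% interval -0.08 to 0.10, edgeR adjusted p = 0.968). Srsf4 (ENSMUSG00000028911.16, plus strand of chromosome 4, 131873617 to 131901706), which has a long RS domain, had 68.9, 73.7 and 66.6 CPM in low-Mn cerebella, against 66.6, 70.1 and 66.2 CPM in normal-Mn cerebella. Its highest value came from low-Mn replicate 2 and the others were spread over less than 5 CPM, with a log2 fold change of 0.04 (95% interval -0.08 to 0.16, edgeR adjusted p = 0.833). Of the exonic 50-base sequences, 10.035% in Srsf3 and 39.5% in Srsf4 also occur in another gene. The gene sharing the most is Gm12355 at another locus for Srsf3 and the antisense Gm12992 for Srsf4. The labels name a directional library kit and the methods a kit without that word, and the sources used here do not say whether reads were counted by strand. The counts of Srsf2 and Srsf4 may therefore be uncertain by the reads of genes on the opposite strand. Those of Srsf3, Srsf5 and Tra2b may be uncertain by reads that fit copies elsewhere, whichever way strand was treated. How many reads fit more than 1 gene was not examined, and reads longer than 50 bases can be less ambiguous. In Tra2b 7.98% of 50-base sequences occur in another gene, with Gm10254 sharing the most.

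**Figure D2:**
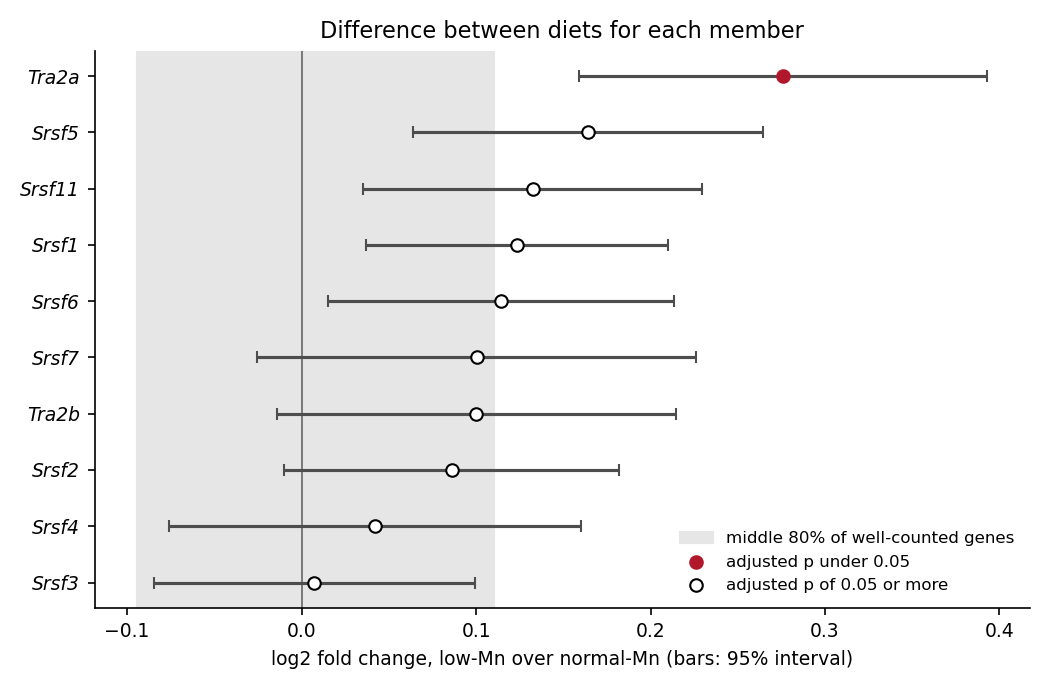
Log2 fold change of low-Mn over normal-Mn cerebella for the 10 genes with 95% intervals from edgeR. The filled point is Tra2a (0.28, adjusted p = 0.0283), the open points did not pass, and the grey band spans the 10th to the 90th percentile (-0.09 to 0.11) of the 3612 genes counted at least as deeply as the least abundant member.

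Leaving out libraries and changing the settings left the log2 fold change of Tra2a between 0.22 and 0.31 and that of Srsf5 between 0.12 and 0.20. Tra2a passed the test under 15 of 18 settings and Srsf5 under 3. Srsf1, Srsf11 and Srsf6 ranged from 0.11 to 0.14, from 0.10 to 0.16 and from 0.09 to 0.15 and passed under none. The plot of the settings shows that the widest steps came from leaving out single libraries.

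**Figure D3:**
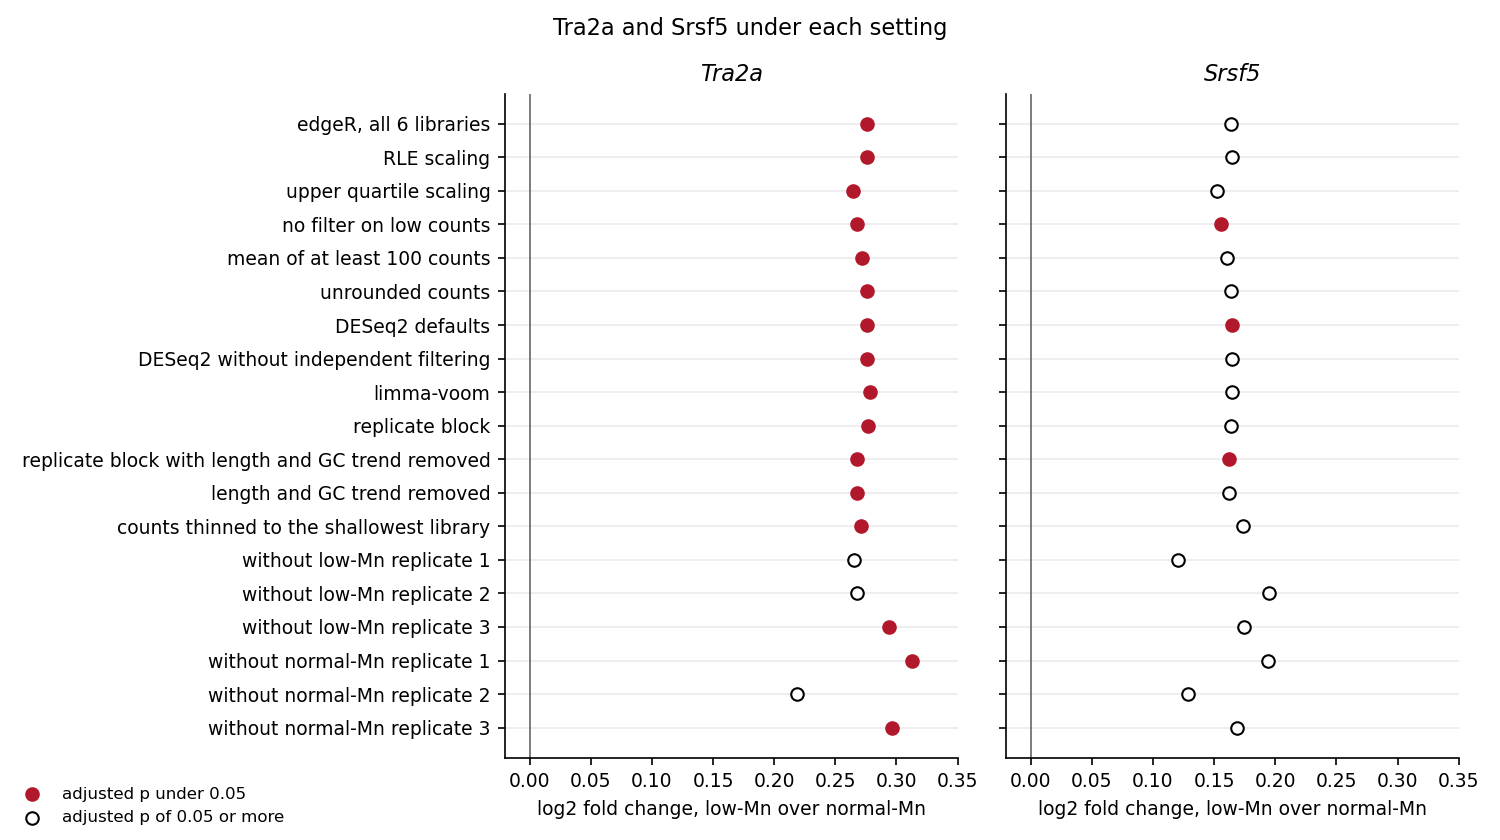
Log2 fold changes of Tra2a (left) and Srsf5 (right), with low-Mn divided by normal-Mn, under the main edgeR test (top) and 18 other settings. Filled points passed an adjusted p of 0.05, which Tra2a did under 15 of 18 and Srsf5 under 3 of 18.

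The highest value of every member was in a low-Mn library. Low-Mn replicate 1 held the highest value of 8 members and low-Mn replicate 2 that of the other 2. The lowest value was in normal-Mn replicate 2 for 4 members, in normal-Mn replicate 3 for another 4, in normal-Mn replicate 1 for 1 (Srsf6) and in low-Mn replicate 2 for 1 (Srsf3). Averaged over the 10 genes, the log2 distance from each gene's mean was 0.10, 0.05 and 0.02 in the low-Mn libraries, against -0.05, -0.05 and -0.07 in the normal-Mn libraries. The low-Mn libraries were spread more widely than the normal-Mn libraries in this mean. Summed over the members, the level was 1805, 1728 and 1715 CPM in low-Mn cerebella, against 1623, 1605 and 1622 CPM in normal-Mn cerebella. Without low-Mn replicate 1 the median log2 fold change of the 10 genes was 0.08, against 0.11 with all libraries.

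Levels between genes were compared per kilobase of annotated exon, over all 6 libraries. Srsf5 stood highest at 73.3 CPM per kilobase (range 65.8 to 82.0), followed by Srsf2 at 62.9 (59.4 to 66.5), and these neighbours overlapped in their ranges. Srsf1 came next at 54.2 CPM per kilobase (51.1 to 57.9), then Srsf6 at 35.3 (32.7 to 37.9) and Srsf3 at 26.7 (26.0 to 27.5), each apart from its neighbours. Srsf7 (24.0 CPM per kilobase, 21.0 to 25.7) overlapped Srsf11 (21.9, 20.6 to 23.9), which overlapped Srsf4 (19.3, 18.6 to 20.7). Tra2a at 12.5 CPM per kilobase (10.4 to 13.9) and Tra2b at 9.56 (8.84 to 10.2) were the lowest and did not overlap. The order depends on the length used: per kilobase of the longest coding transcript only 3 of the 10 (Srsf5, Srsf2 and Tra2b) kept their place, with Srsf5 at 186 CPM per kilobase. On that length Srsf3 (80.6 CPM per kilobase) stood above Srsf1 (57.7), and Tra2a (48.3) was close to Srsf6 (48.1).

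**Figure D4:**
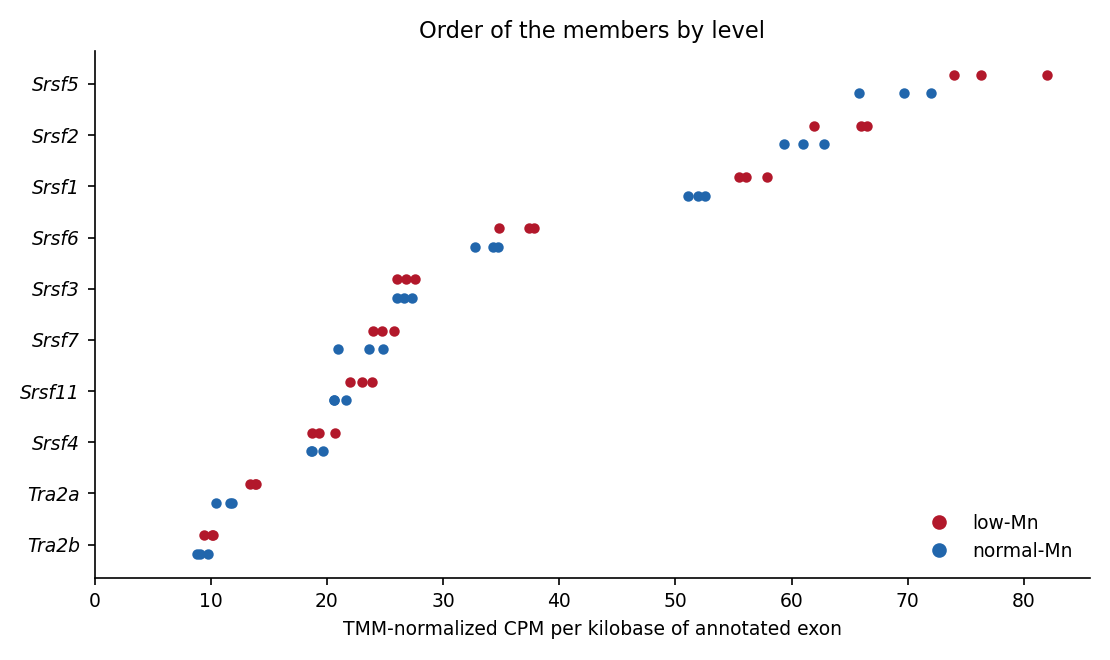
TMM-normalized CPM per kilobase of annotated exon for the 10 genes, with the 3 low-Mn libraries (red, above) and the 3 normal-Mn libraries (blue, below). Srsf5 averaged 73.3 and Tra2b 9.56 CPM per kilobase over the 6 libraries.

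Genes that work beside the members were read from further lists. Like the members, these were chosen with earlier results of these data known, so they are not independent of those results. The enzymes that phosphorylate SR proteins, with their carriers, held 13 tested genes, of which 12 had a log2 fold change above 0 (median 0.12). Before adjustment 6 were higher with an edgeR p under 0.05, against 6.54% of tested genes. In 3 every low-Mn library was above every normal-Mn library, against 8.79% of tested genes. In 1 every one was below, against 1342 of the 16123 tested genes. After adjustment 1 gene passed the test. That gene was Clk1, a nuclear kinase that releases SR proteins from speckles, with 183, 173 and 162 CPM in low-Mn cerebella, against 151, 138 and 139.9 CPM in normal-Mn cerebella. Every low-Mn value exceeded every normal-Mn value, with a log2 fold change of 0.27 (95% interval 0.16 to 0.38, edgeR adjusted p = 0.0214). The call was lost without low-Mn replicate 1, low-Mn replicate 2, normal-Mn replicate 2 or normal-Mn replicate 3. Second by p in this list stood Dyrk1a, a kinase of splicing factors encoded on the mouse counterpart of the human Down syndrome region, with means of 83.6 CPM in low-Mn and 74.6 CPM in normal-Mn cerebella (log2 fold change 0.17, edgeR adjusted p = 0.206). Clk4, a relative of Clk1 named after its values were seen, had a larger log2 fold change of 0.21 (edgeR adjusted p = 0.217), with diets that overlapped, and among the settings run passed only without low-Mn replicate 3.

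A list of other RS-domain and related proteins held 30 tested genes, of which 27 (90%) had a log2 fold change above 0 (median 0.07). Before adjustment 11 were higher and 1 lower with an edgeR p under 0.05, against 6.54% of tested genes higher. In 13 every low-Mn library was above every normal-Mn library, against 8.79% of tested genes. In 1 every one was below, against 1342 of the 16123 tested genes. After adjustment 1 gene passed the test. It was Rbm25, which binds exonic enhancers and acts with U1 snRNP. The paper describes a domain rich in glutamate and arginine for it and names no RS domain. Rbm25 had 205, 187 and 194 CPM in low-Mn cerebella, against 165, 159 and 174 CPM in normal-Mn cerebella. The diets did not overlap, and the log2 fold change was 0.24 (95% interval 0.13 to 0.34, edgeR adjusted p = 0.0303). This call was lost without low-Mn replicate 1, low-Mn replicate 3, normal-Mn replicate 1 or normal-Mn replicate 2. Acin1, a partner of the exon junction complex, had means of 172 CPM in low-Mn and 151 CPM in normal-Mn cerebella (log2 fold change 0.19, edgeR adjusted p = 0.0756). DESeq2 with default settings called Acin1, Luc7l3 and Zranb2 of this list besides Rbm25. Rbm23 of this list was not analysed here. The remaining SR proteins, 3 genes, held none that passed in edgeR or DESeq2 and 1 with an unadjusted edgeR p under 0.05. This was Srsf10, a splicing repressor when dephosphorylated, with a log2 fold change of 0.11 (edgeR adjusted p = 0.371). Of its exonic 50-base sequences, 10.3% occur in another gene, with Gm5446 sharing the most. Srsf12 had a log2 fold change of -0.17 (edgeR adjusted p = 0.653).

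Splice site recognition partners, hnRNP proteins and nonsense-mediated decay factors held 9, 22 and 10 tested genes, with 5, 12 and 7 above 0, medians of 0.02 each and none past the test. With unadjusted p under 0.05, edgeR gave 1 higher and 1 lower of the partners, 3 higher of the hnRNP proteins and 1 higher of the decay factors. Of the 16123 tested genes, 1054 (6.54%) were higher and 900 lower at that p. Every low-Mn library was above every normal-Mn library for 2 partners, 5 hnRNP proteins and 1 decay factor, against 8.79% of tested genes. For 3 partners every one was below, which held for 1342 of the 16123 tested genes. DESeq2 with default settings called Snrnp70, Hnrnph1 and Smg1 among them. Snrnp70, the U1 protein that SR proteins contact, had means of 500.1 CPM in low-Mn and 442 CPM in normal-Mn cerebella (log2 fold change 0.18, edgeR adjusted p = 0.142). Snrpa, another U1 protein, had means of 43.0 CPM in low-Mn and 48.3 CPM in normal-Mn cerebella (log2 fold change -0.17, edgeR adjusted p = 0.317), and 20.2% of its exonic 50-base sequences occur in another gene. Hnrnph1, which binds G-rich RNA, had a log2 fold change of 0.17 (edgeR adjusted p = 0.0814), and Ptbp2, the neuronal polypyrimidine tract binding protein, one of 0.17 (edgeR adjusted p = 0.212). Smg1, the kinase that phosphorylates Upf1 in nonsense-mediated decay, had means of 473 CPM in low-Mn and 409.7 CPM in normal-Mn cerebella (log2 fold change 0.21, edgeR adjusted p = 0.0647). Smg9, a partner of Smg1, had a log2 fold change of -0.09 (edgeR adjusted p = 0.692).

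**Figure D5:**
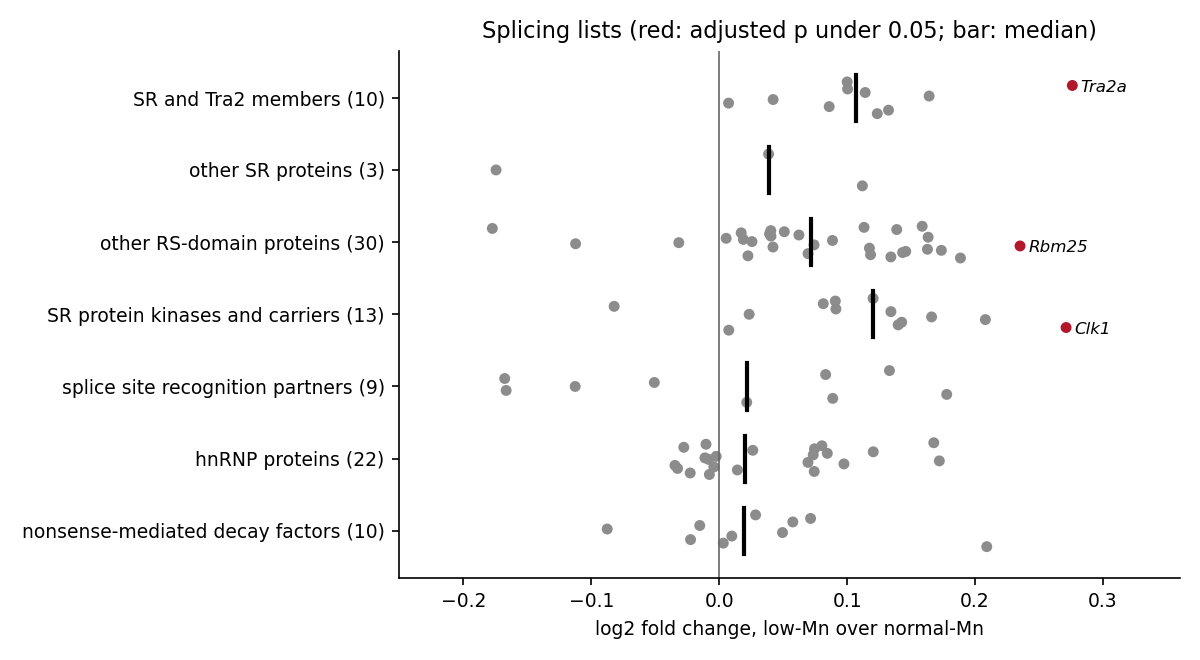
Log2 fold change of low-Mn over normal-Mn cerebella for every tested gene of the SR and Tra2 members and of 6 other splicing lists, with the number of genes in parentheses and a bar at each median. Tra2a, Rbm25 and Clk1 (red) passed an adjusted p of 0.05, and the medians run from 0.02 in the decay factors to 0.12 in the kinases and carriers.

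The genes most like the members were sought among 11507 genes outside these lists, by the Pearson correlation over the 6 libraries between log2 CPM and the mean distance of the 10 members. Such a correlation is a description, since the points share the diets and the library depth. It was 0.991 for Slc38a2, a transporter of neutral amino acids, 0.990 for Slc25a29, a mitochondrial carrier of basic amino acids, 0.987 for Ino80e, a subunit of the INO80 remodeller, 0.986 for Usf1, a transcription factor, and 0.984 for Wdr33, a part of the polyadenylation complex. Slc38a2 had a log2 fold change of 0.27 (edgeR adjusted p = 0.00562), and the other 4 did not pass, with adjusted p of 0.107 to 0.319.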

How the data were processed

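RNA was sequenced from 6 cerebella. By the study's methods, polyadenylated RNA was sequenced on the Illumina NovaSeq, mapped with STAR and compared with DESeq2, and the submitters' processing notes add FastQC, RSEM and mm10. The sources used here give no tool versions. The deposited values are expected counts, which the authors did not normalize, and 7.13% to 7.75% of them were not whole. They pool all transcripts of a gene. The 92 spike-in entries held 0 counts. GENCODE M21 matched 53620 of 53715 genes.

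Counts were rounded, filtered with filterByExpr (minimum count 10, minimum total 15), scaled by TMM and tested with edgeR 4.0.16 (glmQLFit, glmQLFTest) in R 4.3.3, with Benjamini-Hochberg adjustment over 16123 genes. CPM are TMM-normalized, and fold changes are low-Mn over normal-Mn. Alternatives were other scalings and filters, unrounded and thinned counts, DESeq2 1.42.0, limma 3.58.1, a replicate block, a length and GC trend removed, and each library left out. Sharing is the percent of exonic 50-base sequences found in another annotated gene. Members and lists were chosen with earlier results of these data known. Named genes are all members, of each list those that passed and the 2 of smallest p, and the 5 genes most like the members among those with a mean of at least 100 counts.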

Additional observations from a re-analysis of the deposited data

How the results depend on the processing

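Tra2a kept a log2 fold change above 0 in all 18 settings and passed in 15. The number of members that passed was 2 (Tra2a and Srsf5) without the filter on low counts, with default DESeq2 settings, and with the replicate block together with the length and GC trend removed, 1 with the replicate block alone, and 0 to 1 when single libraries were left out. Genes passing numbered 96, against 424 without the filter, 137 (of 7144) with default DESeq2 settings, 63 with limma-voom, 153 with the length and GC trend removed, 128 with the replicate block, 186 with both, and 37 to 93 with a library left out. Genes of the other splicing lists numbered 2, against 7 without the filter, 8 and 4 with DESeq2 with and without independent filtering, 3 with the replicate block, 4 with the block and the trend, and 0 to 2 with a library left out. Of genes passing, 69.8% were higher, against 58.9% with upper quartile scaling and 51.4% without the filter. Members with every low-Mn above every normal-Mn library numbered 5 (8.79% of all tested genes), and 5 to 8 with a library left out, when the share of all tested genes was also larger, 12.5% to 14.8% (8 members and 12.5% without normal-Mn replicate 2). With upper quartile scaling 4 members had diets that did not overlap, and the share of all tested genes was not computed for that scaling. Srsf3 reversed to -0.0043 with upper quartile scaling, -0.0012 without the filter, -0.0098 with the trend removed, -0.0099 with the replicate block and the trend, and ran from -0.0136 to 0.0269 with a library left out. The causes of these differences were not tested.

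Same-numbered libraries of the 2 diets did not deviate together (correlations of 0.019, -0.085 and 0.079 over 11685 genes). Correlations between libraries of different numbers ran from -0.115 to 0.0917. The main test therefore used no pairing. With 3 libraries per diet this check cannot decide whether a number marks a shared cage, litter or day. With 3 mice per diet, the 95% intervals of 5 of the 10 members included 0, and an adjusted p above 0.05 does not show that a gene was unchanged. Gene counts do not separate coding from decay transcripts, and protein was not measured in these files.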
